A study of Mus musculus with 22 samples.

Results

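The set described here is 10 genes of the interleukin-6 (IL-6) cytokine family and its main signalling route, taken from the deposited count tables by gene name. All 10 were found in both tables, among 54532 genes each, and 8 of the 10 had enough reads to be tested in each table. The members are the ligands Lif, Cntf, Clcf1 and Il6, the receptor subunits Lifr, Osmr, Il6st and Il6ra, the transcription factor Stat3 and its feedback inhibitor Socs3. The retina and choroid of adult mice were dissected together and their RNA was sequenced in bulk. Laser burns were used to induce CNV, choroidal neovascularisation, in which vessels of the choroid grow towards the retina. The wild-type mice (C57BL/6J) gave 16 libraries, 4 from age-matched controls without CNV and 4 from each of 3 times, which were day 3, day 7 and day 14 of the injury. A second table holds 6 libraries, all at day 3 after the laser, 3 from Rag2-/-γc-/- mice and 3 from Rag2-/- mice. Mice without Rag2 make no mature T or B cells, and the added loss of the common gamma chain, a shared cytokine receptor subunit, also removes natural killer (NK) cells. Both Rag2 groups lack T and B cells and both received the laser, so the pair has no unlasered control. The series was made to follow NK cell genes after the laser and to learn how NK cells protect.

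IL-6 family cytokines signal through receptor pairs that contain gp130, the product of Il6st. Leukaemia inhibitory factor (LIF) binds LIFR with gp130, ciliary neurotrophic factor (CNTF) and cardiotrophin-like cytokine factor 1 (CLCF1) use LIFR and gp130 together with a further binding subunit, oncostatin M can use OSMR with gp130, and IL-6 first binds its own receptor, IL6RA. The receptors activate JAK kinases, which phosphorylate STAT3, and SOCS3, itself induced by STAT3, shuts the receptor complex off. In the mouse retina LIF is known to be made by Muller glia after photoreceptor injury, and STAT3 signalling in Muller glia accompanies the rise of the glial filament gene Gfap. Phosphorylation was not measured here, so the values below are transcript levels and not pathway activity.

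Library depth ran between 15033983 and 16848254 counts in wild-type mice and between 27227847 and 30315086 in the Rag2 table. Il2rg, which encodes the common gamma chain, had 0 reads in all 3 Rag2-/-γc-/- libraries, against 1.22, 2.08 and 0.927 CPM in the Rag2-/- libraries, where CPM is the read count scaled to the size of the library. Rag2 itself lay between 0 and 0.246 CPM in every library of the series, so its level checks neither genotype. Control replicate 4 is without CNV by its title but carries a laser treatment tag. Markers of the labelled tissue were present in every library, with summed CPM of 8 rod genes between 14473 and 62192 and of 8 retinal pigment epithelium genes between 1385 and 3268. Lens and cornea markers were also present. The summed CPM of 10 lens genes lay between 5.99 and 134327 in wild-type libraries, highest in day 14 replicate 1, and that of 10 cornea and conjunctiva genes between 2369 and 31244, highest in day 3 replicate 3. The labels do not say that the libraries of a group came from separate animals, so p-values measure the spread between these libraries, which may be partly technical. In bulk tissue, fewer cells of a type and less RNA per cell cannot be told apart.

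At day 3 after the laser, 5 of the 10 members were higher than in controls: the ligands Lif and Clcf1, the receptor subunit Osmr, Stat3 and Socs3. Socs3 was 6.40-fold, Lif 4.35-fold, Stat3 2.56-fold, Osmr 2.43-fold and Clcf1 1.92-fold its control level. Lifr, Il6st and Il6ra were tested and did not pass, and Cntf and Il6 could not be tested. Over all 18657 genes tested, 14.7% were called in either direction at this time and 6.97% were called higher (edgeR quasi-likelihood test, Benjamini-Hochberg adjusted p under 0.05, fitted over all 16 wild-type libraries). In all 5 called members every day 3 library lay above every control library, which held for 17.4% of all tested genes. The members were chosen with earlier results of these data known, so the comparison with these shares describes and does not test.

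**Figure D1:**
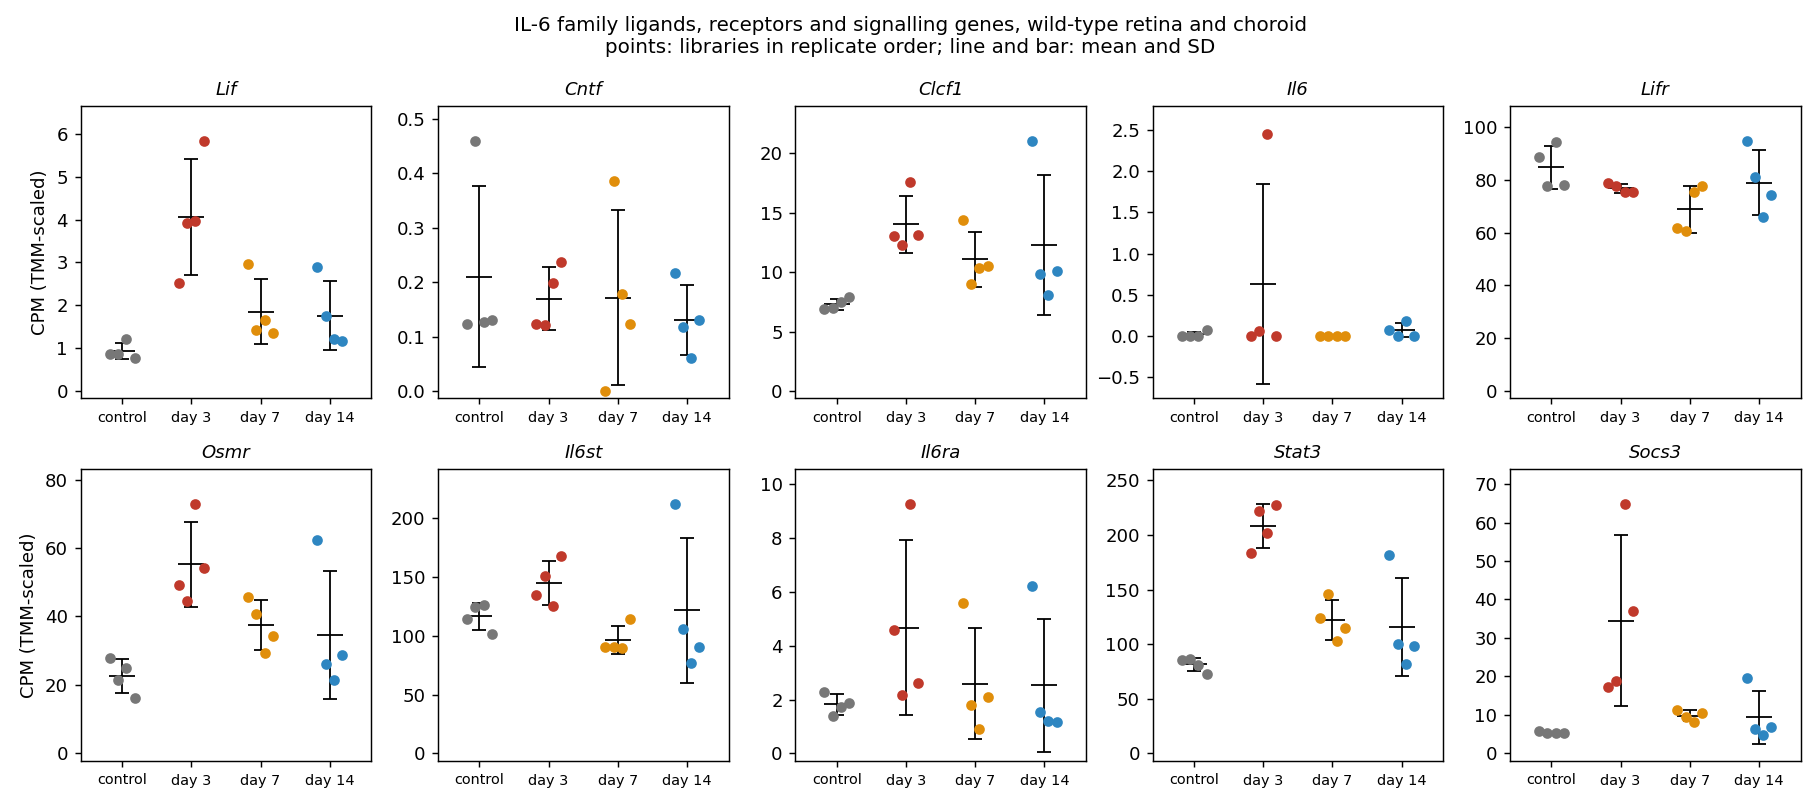
TMM-scaled CPM of the 10 members (vertical axes, each gene on its own scale) in wild-type controls and on days 3, 7 and 14 of the injury; points are libraries in replicate order, horizontal lines and bars the mean and SD of 4 libraries. Lif, Clcf1, Osmr, Stat3 and Socs3 have all 4 day 3 points above all 4 control points, and at day 14 replicate 1 stands highest of its group for each of these genes.

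Among the ligands, Lif had 0.866, 0.853, 1.21 and 0.780 CPM in the 4 controls, 2.51, 3.92, 3.97 and 5.83 CPM at day 3, 2.97, 1.42, 1.66 and 1.35 CPM at day 7, and 2.89, 1.76, 1.21 and 1.17 CPM at day 14. These are low levels, resting on 41 to 98 reads per library at day 3 and 12 to 19 in controls. The day 3 level was higher by 2.12 ± 0.37 on the log2 scale (SE, n = 4 libraries each, edgeR adjusted p = 0.00782). Clcf1, which shares the CNTF receptor complex, had 6.87, 6.95, 7.50 and 7.86 CPM in controls, 13.0, 12.3, 17.6 and 13.1 CPM at day 3, 14.4, 9.02, 10.4 and 10.5 CPM at day 7, and 21.0, 9.85, 8.09 and 10.1 CPM at day 14. It was above control in all 12 lasered libraries, and its day 3 change was 0.94 ± 0.26 (edgeR adjusted p = 0.0317). This call held in only 1 of the 8 fits that each left out 1 library, with adjusted p up to 0.104.

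Cntf and Il6 had too few reads to be tested. Cntf, a ligand stored in glia and released on injury, had 2 to 7 reads per control library, 2 to 4 at day 3, 0 to 6 at day 7 and 1 to 3 at day 14, with no group set apart. Its gene model overlaps Zfp91 on the same strand, so its few reads are uncertain. Il6, the founding cytokine of the family, had 37 reads (2.45 CPM) in day 3 replicate 3, and 0, 1 and 0 reads in the other day 3 libraries, against a single read in all 4 controls together. No read was found at day 7, and at day 14 the libraries had 1, 0, 3 and 0 reads. Fitted without the filter on low counts, Il6 did not pass (edgeR adjusted p = 0.149 over 35043 genes). In day 3 replicate 3 the summed CPM of 8 neutrophil markers was 117, against 3.80 to 10.04 in the other day 3 libraries, and that of the cornea markers was 31244, against 4524 to 12801. The part of those cells in the Il6 reads was not tested.

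Of the receptor subunits, Osmr passed at day 3 and Lifr, Il6st and Il6ra did not. Osmr, the oncostatin M receptor subunit, had 27.9, 21.6, 25.0 and 16.3 CPM in controls, 49.3, 44.5, 73.0 and 54.1 CPM at day 3, 45.7, 40.7, 29.2 and 34.4 CPM at day 7, and 62.5, 26.3, 21.4 and 28.6 CPM at day 14. Its day 3 change was 1.28 ± 0.29 (edgeR adjusted p = 0.0186), and the call held in 4 of 8 fits that left out 1 library. Lifr, which carries the signals of LIF, CNTF and CLCF1, had 88.5, 77.8, 94.3 and 78.2 CPM in controls, 78.7, 77.9, 75.4 and 75.2 CPM at day 3, 61.8, 60.4, 75.3 and 77.8 CPM at day 7, and 94.7, 81.2, 65.8 and 74.2 CPM at day 14. Its day 3 difference was −0.14 with a 95% interval of −0.39 to 0.11 (edgeR adjusted p = 0.383). Il6st had 114, 124, 126 and 102 CPM in controls, 135, 151, 125 and 168 CPM at day 3, 90.7, 90.1, 89.9 and 115 CPM at day 7, and 212, 106, 76.8 and 90.8 CPM at day 14. The day 3 values of Il6st overlapped the controls (0.31, 95% interval −0.20 to 0.83, edgeR adjusted p = 0.342). Il6ra, the binding subunit for IL-6, had 2.29, 1.38, 1.72 and 1.88 CPM in controls and 4.59, 2.17, 9.27 and 2.62 CPM at day 3. Its day 3 libraries differed widely among themselves, and the difference of 1.35 ± 0.64 did not pass (edgeR adjusted p = 0.135). It had 5.57, 1.80, 0.888 and 2.09 CPM at day 7 and 6.21, 1.52, 1.21 and 1.17 CPM at day 14, with 1 high library at each time. Il6ra and Clcf1 overlap genes on the opposite strand, and the strand setting of the counting is not given in the sources used here.

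Stat3, the transcription factor of the pathway, had 85.2, 86.5, 81.1 and 72.9 CPM in controls, 183, 222, 201 and 227 CPM at day 3, 124, 146, 102 and 115 CPM at day 7, and 182, 99.8, 82.0 and 98.3 CPM at day 14. The day 3 libraries were close to each other and far from the controls (1.36 ± 0.20, edgeR adjusted p = 0.00446). Stat3 passed in each of the 17 alternative fits of this comparison. Its gene model overlaps that of Stat5a on the opposite strand. Stat5a itself changed by 0.50 at day 3 without passing (edgeR adjusted p = 0.315). Socs3, the feedback inhibitor, had 5.75, 5.18, 5.40 and 5.20 CPM in controls, 17.3, 18.7, 64.9 and 37.1 CPM at day 3, 11.4, 9.34, 8.17 and 10.4 CPM at day 7, and 19.7, 6.45, 4.71 and 6.75 CPM at day 14. The controls differed by little, while the day 3 libraries spread widely, with replicate 3 highest. Its day 3 change was 2.68 ± 0.46 (edgeR adjusted p = 0.00782), and 2.18 without replicate 3 (edgeR adjusted p = 0.0195).

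**Figure D2:**
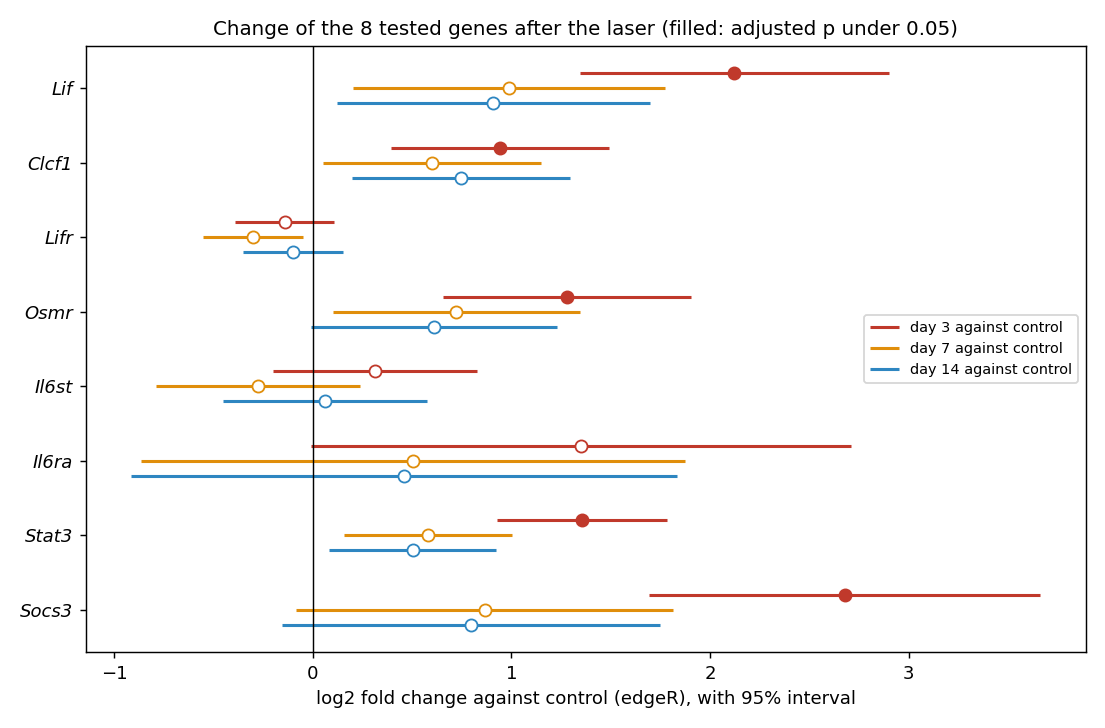
Log2 fold change against control (horizontal axis) of the 8 tested members at day 3, day 7 and day 14, with 95% intervals from edgeR; filled points passed an adjusted p under 0.05. Only day 3 points of Lif, Clcf1, Osmr, Stat3 and Socs3 are filled, between 0.94 and 2.68, and the points of Lifr and Il6st lie between −0.30 and 0.31 at the 3 times, with the day 7 interval of Lifr (−0.55 to −0.05) below 0.

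Promoter sequence was looked up for the members. RefSeq (GRCm38.p6, the assembly of mm10) held a window of 250 bases before to 50 bases after the start for 9 of the 10 members and none for Clcf1. The 4 windows shown belong to members that were higher together at day 3. They are, 5′ to 3′, Lif at chr11:4257318-4257617 on the plus strand, Osmr at chr15:6874264-6874563, Stat3 at chr11:100939491-100939790 and Socs3 at chr11:117969317-117969616, the last 3 on the minus strand. Capitals mark matches to TTCNNNGAA, the spaced half-sites that STAT proteins bind, and to TGANTCA, a form of the AP-1 motif. Both motifs read the same on either strand.
Lif: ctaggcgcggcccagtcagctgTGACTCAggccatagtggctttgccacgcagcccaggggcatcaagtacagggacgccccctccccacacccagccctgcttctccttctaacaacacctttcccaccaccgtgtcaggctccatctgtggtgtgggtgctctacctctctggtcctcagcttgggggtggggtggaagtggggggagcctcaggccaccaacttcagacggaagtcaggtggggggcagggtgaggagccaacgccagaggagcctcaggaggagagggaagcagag
Osmr: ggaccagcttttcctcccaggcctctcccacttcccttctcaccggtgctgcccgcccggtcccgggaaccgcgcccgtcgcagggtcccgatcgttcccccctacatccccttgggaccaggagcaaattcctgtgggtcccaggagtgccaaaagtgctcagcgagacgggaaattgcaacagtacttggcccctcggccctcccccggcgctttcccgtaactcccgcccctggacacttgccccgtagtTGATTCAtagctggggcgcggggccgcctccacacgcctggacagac
Stat3: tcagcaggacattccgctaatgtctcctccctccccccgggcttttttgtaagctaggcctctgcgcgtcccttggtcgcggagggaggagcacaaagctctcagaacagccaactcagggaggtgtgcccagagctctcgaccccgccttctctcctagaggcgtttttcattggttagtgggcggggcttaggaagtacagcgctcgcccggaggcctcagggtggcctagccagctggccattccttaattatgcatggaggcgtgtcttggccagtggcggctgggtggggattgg
Socs3: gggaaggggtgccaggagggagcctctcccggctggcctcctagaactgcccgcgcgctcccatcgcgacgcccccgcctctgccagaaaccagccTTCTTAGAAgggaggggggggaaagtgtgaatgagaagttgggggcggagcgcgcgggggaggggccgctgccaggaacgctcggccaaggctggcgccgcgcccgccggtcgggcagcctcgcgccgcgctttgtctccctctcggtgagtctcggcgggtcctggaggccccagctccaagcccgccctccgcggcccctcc

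Socs3 held the sequence TTCTTAGAA, starting 154 bases before the RefSeq start, and was the 1 member of the 9 with a match to TTCNNNGAA. The Socs3 and Osmr windows lie inside the gene models behind the counts (chr11:117966079-117970047 and chr15:6813577-6874969). Those models begin further upstream than the RefSeq starts, so the matches in these windows are not upstream of the counted genes. That motif occurs in 8.30% of 32851 promoter windows of this length, and in a window of 2582 of 27025 genes. TGANTCA was found in 4 members, as TGACTCA in Lif and Cntf, TGAGTCA in Il6 and TGATTCA in Osmr. It occurs in 7.81% of windows, and in a window of 2425 of 27025 genes. The Stat3 window held neither. A match is a description of the letters and not a bound site.

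Compared per length, as FPKM deposited by the authors, the order of the members shifted after the laser. In controls Il6st was highest with 10.4 ± 1.122 FPKM (SD, n = 4), followed by Stat3 with 8.47 ± 0.695 and Lifr with 7.79 ± 0.798 FPKM, neighbours whose libraries overlapped. Clcf1, Osmr and Socs3 followed at 1.95, 1.86 and 1.84 FPKM, all overlapping their neighbours in that order, and Lif, Il6ra and Cntf lay at 0.211, 0.208 and 0.194 FPKM. At day 3 Stat3 was highest with 21.97 ± 2.13 FPKM, above Il6st (13.1 ± 1.69) in every library. Socs3 came next with 12.001 ± 7.75 FPKM, overlapping Il6st and Lifr (7.15 ± 0.144 FPKM), and Lif reached 0.937 ± 0.315 FPKM. At day 7 the order was Stat3 (12.8 ± 1.86 FPKM), Il6st (8.69 ± 1.098) and Lifr (6.40 ± 0.861), with no overlap between these neighbours. At day 14 Stat3 (12.1 ± 4.71 FPKM), Il6st (10.9 ± 5.57) and Lifr (7.31 ± 1.122) overlapped again.

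At day 7 none of the 8 tested members passed against control (edgeR), where 10.5% of all genes were called in either direction. Unadjusted p was under 0.05 for 5 of them and for 5996 of all 18657 genes. DESeq2 called 1 (Stat3) and 20.2% of all genes, and limma voom called 0 and 10.8%. Lif, Clcf1, Osmr, Stat3 and Socs3 each still had every day 7 library above every control library, which held for 11.3% of all genes. Their log2 differences were 0.99 for Lif (edgeR adjusted p = 0.0863), 0.60 for Clcf1 (adjusted p = 0.125), 0.72 for Osmr (adjusted p = 0.107), 0.58 for Stat3 (adjusted p = 0.0683) and 0.87 for Socs3 (adjusted p = 0.191). Lifr, with 60.4 to 77.8 CPM at day 7 against 77.8 to 94.3 CPM in controls, was lower by a value short of the threshold (−0.30, edgeR adjusted p = 0.102). Il6st was at −0.27 (95% interval −0.79 to 0.24, edgeR adjusted p = 0.436). The result depended on which libraries entered the fit. Fitted on day 7 and control libraries alone, 4 members passed (Clcf1, Osmr, Stat3 and Socs3), in a fit that called 23.9% of all genes. Leaving out replicate 3 of day 3, replicate 2 of day 7 and replicate 1 of day 14 together, all 5 passed and 19.6% of all genes were called.

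At day 14 none of the 8 tested members passed against control either (edgeR), where 0.273% of all genes were called. Unadjusted p was under 0.05 for 3 of them and for 4625 of all 18657 genes. DESeq2 and limma voom called 0 of them, and 9.65% and 0.541% of all genes. Clcf1 alone kept every lasered library above every control (0.75, edgeR adjusted p = 0.115), which held for 6.76% of all genes. Replicate 1 had the highest value of the day 14 group for all 8 tested members, with Stat3 at 182 CPM against 82.0 to 99.8 CPM in the other 3 libraries and Socs3 at 19.7 CPM against 4.71 to 6.75 CPM. Without it the log2 difference of Stat3 from control fell to 0.21, against 0.50 with it, and that of Socs3 to 0.16, against 0.80. For Lif the difference was 0.59 without it and 0.91 with it, and for Clcf1 0.37 without it and 0.75 with it. In the same library the summed lens markers were 134327 CPM, against 581 to 19569 CPM in the other day 14 libraries. The summed Muller glia markers there were 12855 CPM, against 5468 to 6440 CPM, and the summed monocyte and macrophage markers were 277 CPM, against 59.7 to 76.1 CPM. Their part in these levels was not tested.

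The differences of the later times from day 3 did not pass in the fit over all libraries. Day 7 against day 3 gave 0 calls among the 8 members and 0 among all genes, 0% (edgeR; unadjusted p under 0.05 for 4 members and 1144 genes; DESeq2 1 member and 63 genes; limma voom 0 and 0). Stat3 (−0.78 ± 0.20), Socs3 (−1.81 ± 0.44) and Il6st (−0.59 ± 0.24) had every day 7 library below every day 3 library, which held for 2.94% of all genes, with edgeR adjusted p of 0.429, 0.429 and 0.778. Lif differed by −1.13 ± 0.35 (edgeR adjusted p = 0.662). Day 14 against day 3 gave 0 calls among members, where 0.00536% of all genes, a single gene, was called (edgeR). Unadjusted p was under 0.05 for 4 members and 1263 genes. DESeq2 called 2 members and 0.616% of all genes, and limma voom 0 and 0.0161%. Stat3 had the one separation of groups there (−0.85 ± 0.20, edgeR adjusted p = 0.231), which 1.45% of genes showed in that direction. Without day 14 replicate 1, Lif (−1.55), Osmr (−1.12), Il6st (−0.66), Stat3 (−1.16) and Socs3 (−2.53) were lower at day 14 than at day 3, with edgeR adjusted p between 0.000329 and 0.0194, in a fit that called 6.82% of 18919 genes in either direction and 3.72% as lower. That library was the highest of its group for all 8 tested members. Leaving it out lowers each day 14 mean by itself, so these p-values do not test a decline. Leaving out any other library of the 2 groups gave 0 calls among members. The comparisons with control and with day 3 share libraries and are not independent of each other.

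Of the other genes of the pathway, listed as 24 further ligands, receptors, kinases, STATs and inhibitors, 18 had enough reads in the wild-type table. At day 3, 2 of the 18 rose and 1 fell, where 6.97% of all genes rose and 7.77% fell, with a median log2 change of 0.10 against 0.01 over all genes. Counts this small are close to those shares. The feedback inhibitor Socs1 rose by 1.25 ± 0.38 (edgeR adjusted p = 0.0437). Without control replicates 2, 3 or 4, or any 1 day 3 library, 1 gene of the list was called higher, where 0.849% to 6.67% of all genes were. These counts do not say whether Socs1 was that gene. Stat5b, a STAT used by growth hormone and cytokine receptors, fell by 0.41 (edgeR adjusted p = 0.028). Jak1, Jak2 and Tyk2, the kinases of the receptors, did not pass and lay between −0.15 and 0.27. At day 7, 1 of the 18 was higher and 2 were lower, where 3.62% of all genes were higher and 6.9% lower, also close to those shares. Stat5b fell by 0.54 and the phosphatase gene Ptpn11 by 0.45 (edgeR adjusted p = 0.0135 and 0.0249). At day 14 no gene of the list passed (edgeR). Unadjusted p was under 0.05 for 4 of the 18, against 4625 of all 18657 genes. DESeq2 and limma voom called 0, against 9.65% and 0.541% of all genes. Oncostatin M, the ligand of OSMR, was too low to test, with 18 reads in the 4 day 3 libraries together and 1 in the 4 controls.

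Of 30 genes known as STAT3 targets or as markers of retinal injury, all tested, 24 rose at day 3 and none fell. Over all genes 6.97% rose and 7.77% fell, and the median log2 change was 1.82 in the list against 0.01 over all genes. The list was chosen with earlier results of these data known, so this comparison describes and does not test. It holds injury markers beside STAT3 targets and does not measure STAT3 activity. Edn2, an endothelin made by stressed photoreceptors, averaged 128 ± 48.5 CPM at day 3, against 5.02 ± 0.828 CPM in controls (SD, n = 4 each), a change of 4.66 ± 0.37 (edgeR adjusted p = 4.32e-05). The iron-binding acute-phase gene Lcn2 rose by 4.18 ± 0.64, the NF-kappaB cofactor Bcl3 by 3.46 ± 0.58, the metalloproteinase inhibitor Timp1 by 3.38 ± 0.54 and the haptoglobin gene Hp by 2.76 ± 0.79 (edgeR adjusted p between 0.00527 and 0.0355). Saa3, an acute-phase gene, averaged 4.56 ± 6.46 CPM at day 3, against 0.0325 ± 0.0650 CPM in controls (edgeR adjusted p = 0.0151). Vegfa and Hif1a, which are also listed there, did not pass and lay at −0.27 and −0.23. The count of 24 was 14, 11, 10 and 11 without control replicates 1, 2, 3 and 4 and 11 without day 3 replicate 3. Those fits called 2.03%, 1.01%, 0.849%, 1.37% and 1.22% of all genes higher. At day 7, 7 of the 30 were higher and none lower, where 3.62% of all genes were higher and 6.9% lower, with a median of 1.01. They included Edn2 (4.07 ± 0.36), Bcl3 (2.14 ± 0.56), Gfap (1.496 ± 0.35), the TWEAK receptor gene Tnfrsf12a (1.33 ± 0.30), the transcription factor Cebpd (1.20 ± 0.32) and the growth factor Fgf2 (1.01 ± 0.29). The count of 7 was 3, 1, 1 and 2 without control replicates 1, 2, 3 and 4, 3 without day 7 replicate 1 and 1 without day 7 replicate 2. The shares of all genes called higher were 0.697%, 0.369%, 0.179%, 0.696%, 0.396% and 0.269% in the same order. At day 14 Edn2 was the 1 gene of the 30 that passed, where 0.0322% of all genes were higher, at 45.4 ± 12.03 CPM against 5.02 ± 0.828 CPM in controls (3.17 ± 0.35, edgeR adjusted p = 0.0034).

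**Figure D3:**
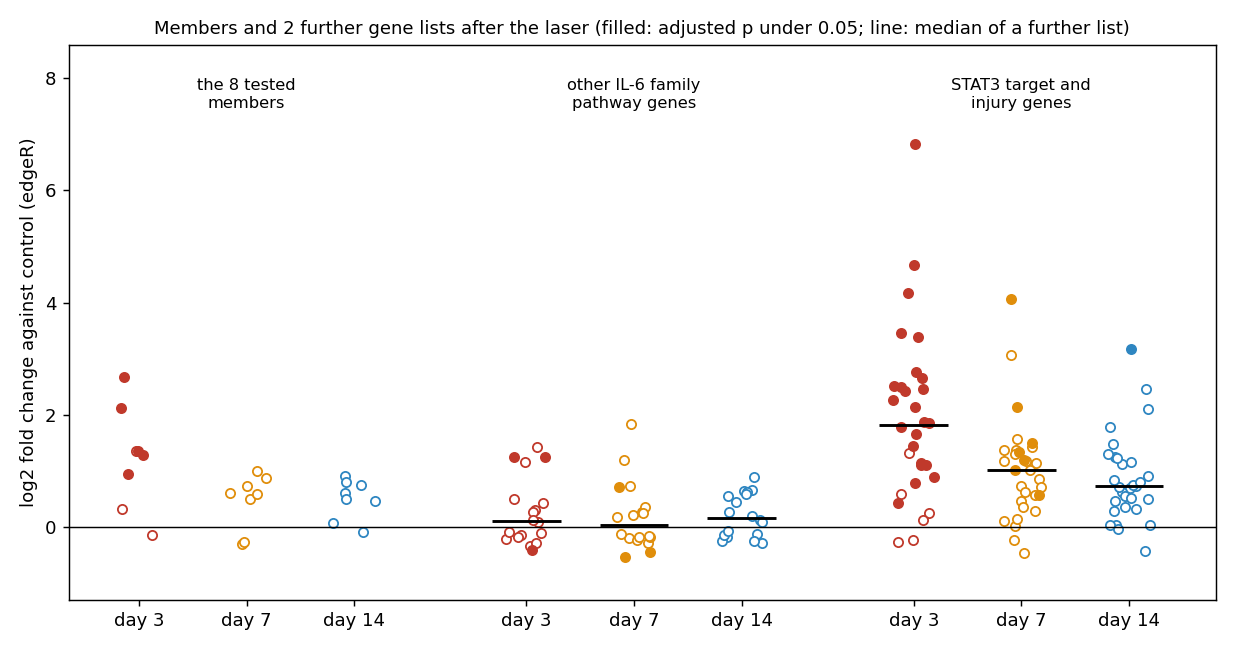
Log2 fold change against control (vertical axis, edgeR) of the 8 tested members, 18 further IL-6 family pathway genes and 30 STAT3 target and injury genes at day 3, day 7 and day 14; filled points passed an adjusted p under 0.05 and lines are medians of the 2 further lists. The STAT3 target and injury genes have medians of 1.82, 1.01 and 0.72 at the 3 times and the further pathway genes lie around 0. Members and lists were chosen with earlier results of these data known, so the panels describe and do not test.

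Markers of other cells moved with the day 3 comparison. Over all tested genes 6.97% were called higher and 7.77% lower, and 17.4% had every day 3 library above every control. Of 10 monocyte and macrophage markers 9 rose, with a summed 82.6 to 239 CPM at day 3 against 26.7 to 49.0 CPM in controls, and none was at 0 in any library. Of 8 microglia markers 4 rose, with sums of 60.8 to 84.8 CPM at day 3 against 31.3 to 39.2 CPM in controls. Of 8 pericyte and fibroblast markers 3 rose, with sums of 390 to 962 CPM at day 3 against 212 to 311 CPM in controls. These sums did not overlap between the groups, and no gene of either list was at 0 in any of these libraries. Of 8 retinal pigment epithelium markers 4 fell, with sums of 1407 to 2157 CPM at day 3 against 2347 to 3268 CPM in controls. Of 8 retinal ganglion cell markers 3 fell, with sums of 236 to 398 CPM at day 3 against 486 to 689 CPM in controls. Neutrophil sums did not overlap either, at 3.80 to 117 CPM at day 3 against 0.845 to 2.16 CPM in controls, with up to 4 of the 8 genes at 0 in a day 3 library and up to 7 in a control. Endothelial sums overlapped (164 to 353 CPM at day 3 against 154 to 209 CPM in controls), as did those of cornea and conjunctiva (4524 to 31244 against 2369 to 7229 CPM) and of NK and T cells (1.27 to 8.74 against 1.12 to 1.75 CPM). Of 10 Muller glia markers 1 rose and 2 fell, with sums of 5800 to 6845 CPM at day 3 against 5819 to 6284 CPM in controls. The summed rod markers were 26918 to 42789 CPM at day 3, against 54630 to 62192 CPM in controls. Summed lens markers were 23247 to 48000 CPM at day 3, against 156 to 12574 CPM in controls, so every day 3 library held more lens transcript than any control. The part of these cells in the members' changes was not tested. Lens and cornea scores were entered as covariates in a further fit. Lens sums did not overlap between day 3 and control, so that fit cannot separate lens content from the laser. In that fit, which called 3.56% of all genes, Stat3 still passed (1.09, edgeR adjusted p = 0.0283), while Lif (1.64, adjusted p = 0.0524), Socs3 (1.77, adjusted p = 0.0635), Osmr (0.61, adjusted p = 0.187) and Clcf1 (0.31, adjusted p = 0.502) did not. The count of STAT3 target and injury genes was 9 of 30 in that fit, all higher, where 1.16% of all genes were called higher.

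Genes whose levels over the 16 wild-type libraries were most like those of a member were ranked by Pearson's r of log2 CPM, as a description, since the libraries share groups and depth. For Stat3 they were Jak3 (r = 0.963), Tnfrsf12a (0.959), Rhoc (0.954), Rfx2 (0.952) and Ipo5 (0.947). For Socs3 they were Serpina3n (0.943), C5ar1 (0.933), Pdpn (0.929), Cpne2 (0.927) and Plat (0.926). For Osmr they were Wwtr1 (0.982), Trim12c (0.965), Rab32 (0.959), Metrnl (0.953) and Leprot (0.952).

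The Rag2 table compared the loss of the common gamma chain at day 3 after the laser. None of the 8 tested members passed in Rag2-/-γc-/- against Rag2-/- mice (edgeR over 6 libraries). Unadjusted p was under 0.05 for 3 of them, DESeq2 called 1 and limma voom 0. Over all 18923 genes tested, 0.465% were called and 2778 had unadjusted p under 0.05. DESeq2 called 3.66% of all genes and limma voom 0.428%. Osmr, Il6st, Stat3 and Socs3 had every Rag2-/-γc-/- library above every Rag2-/- library, which held for 11.5% of all genes. Socs3 had 31.4, 30.6 and 86.3 CPM in Rag2-/-γc-/- libraries, against 20.8, 22.6 and 27.7 CPM in Rag2-/- libraries (1.06 ± 0.50, edgeR adjusted p = 0.418). Osmr had 42.3, 51.1 and 98.6 CPM in Rag2-/-γc-/- libraries, against 29.6, 30.7 and 34.1 CPM in Rag2-/- libraries (1.02 ± 0.35, edgeR adjusted p = 0.302). For both genes replicate 3 of the Rag2-/-γc-/- group stood far above the other libraries.

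Stat3 had 158, 178 and 345 CPM in Rag2-/-γc-/- libraries, against 121, 112 and 137 CPM in Rag2-/- libraries (0.88 ± 0.34, edgeR adjusted p = 0.338). Il6st had 152, 171 and 240 CPM in Rag2-/-γc-/- libraries, against 130, 128 and 139 CPM in Rag2-/- libraries (0.50 ± 0.16, edgeR adjusted p = 0.247), and was the member called by DESeq2. Lif had 1.94, 2.95 and 6.44 CPM in Rag2-/-γc-/- libraries, against 2.51, 1.91 and 2.58 CPM in Rag2-/- libraries, which overlapped (0.70 ± 0.42, edgeR adjusted p = 0.480). Replicate 3 was the highest Rag2-/-γc-/- library for all of these genes. Without it the log2 differences were 0.39 for Socs3, 0.57 for Osmr, 0.44 for Stat3, 0.29 for Il6st and 0.07 for Lif, none past the threshold. Clcf1 had 5.29, 8.11 and 9.84 CPM in Rag2-/-γc-/- libraries, against 9.24, 6.90 and 7.84 CPM in Rag2-/- libraries, which overlapped (−0.04, 95% interval −0.57 to 0.48, edgeR adjusted p = 0.948). Lifr overlapped too, with 68.5, 83.0 and 87.9 CPM in Rag2-/-γc-/- libraries, against 69.8, 75.0 and 83.0 CPM in Rag2-/- libraries (0.07, 95% interval −0.16 to 0.31, edgeR adjusted p = 0.791). Il6ra had 3.58, 1.98 and 2.83 CPM in Rag2-/-γc-/- libraries, against 1.78, 2.18 and 1.79 CPM in Rag2-/- libraries (0.55 ± 0.28, edgeR adjusted p = 0.409).

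The low ligands were again outside the test. Cntf had 6, 5 and 2 reads in Rag2-/-γc-/- libraries, against 20, 9 and 13 in Rag2-/- libraries. Fitted without the filter the difference was −1.54 ± 0.68 (edgeR adjusted p = 0.389 over 31454 genes). Il6 had 3, 1 and 6 reads in Rag2-/-γc-/- libraries, against 0, 1 and 0 in Rag2-/- libraries (edgeR adjusted p = 0.520 in that fit). None of 21 further pathway genes and none of the 30 STAT3 target and injury genes passed (edgeR). Unadjusted p was under 0.05 for 5 and 13 of them, against 2778 of all 18923 genes. DESeq2 called 1 and 5, against 3.66% of all genes, and limma voom 0 and 0, against 0.428%. Of the 30 genes 16 had every Rag2-/-γc-/- library above every Rag2-/- library, which held for 11.5% of all genes, with a median log2 difference of 0.68 against 0.00 over all genes. Replicate 3 was the highest Rag2-/-γc-/- library for 26 of the 30. Without it the median was 0.34 and 1 of the 30 passed, where 0.355% of all genes were called.

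**Figure D4:**
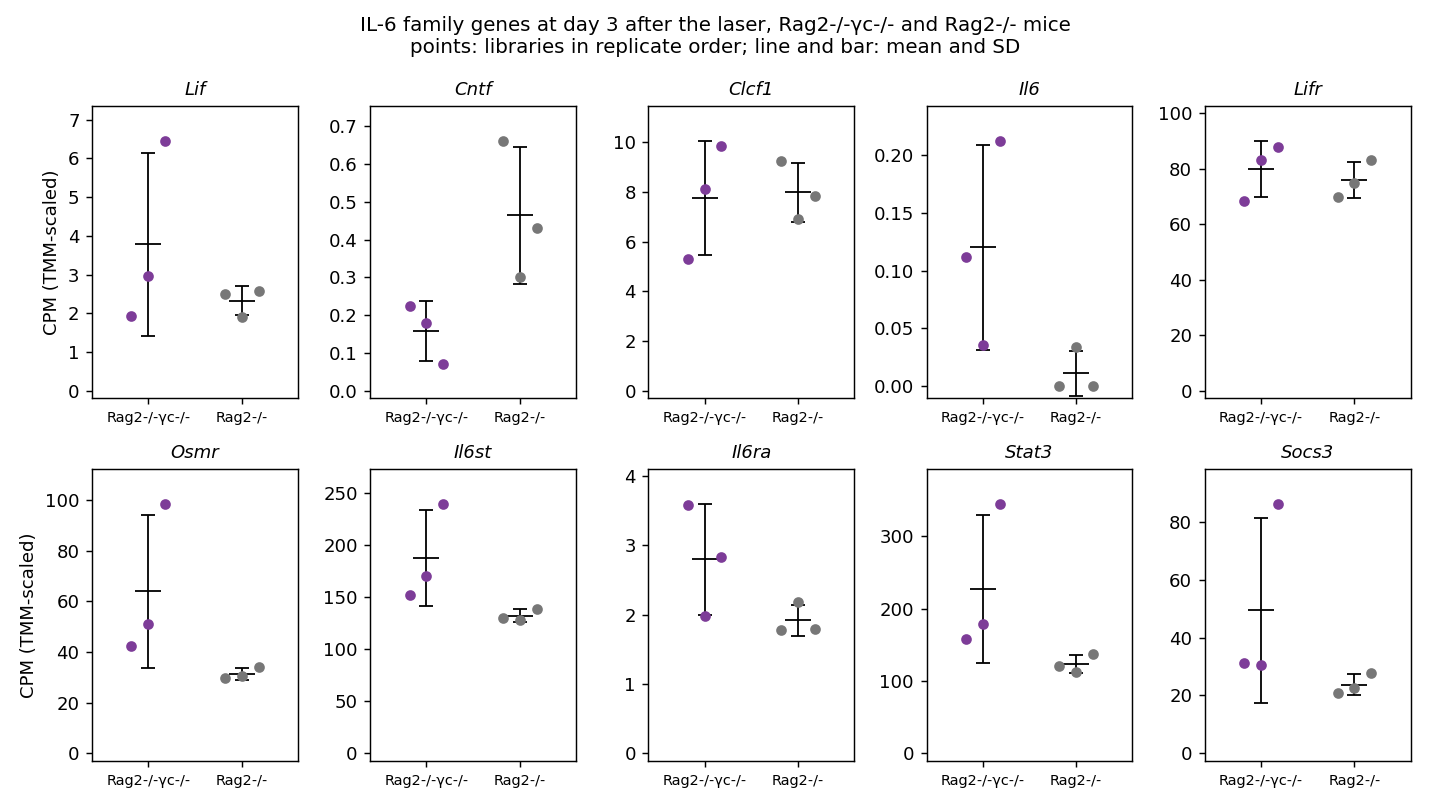
TMM-scaled CPM of the 10 members (vertical axes, each gene on its own scale) in 3 Rag2-/-γc-/- and 3 Rag2-/- libraries at day 3 after the laser; points are libraries in replicate order, lines and bars the mean and SD. Replicate 3 of Rag2-/-γc-/- is the highest of its group for Lif, Clcf1, Lifr, Osmr, Il6st, Stat3 and Socs3, and no gene passed the test.

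Markers of other cells are given for the genotypes as well. The summed CPM of 8 microglia markers was 89.5 to 107 in Rag2-/-γc-/- libraries, against 57.3 to 68.1 in Rag2-/- libraries. Of the 8, 1 passed, where 0.465% of all genes were called. The summed CPM of 10 monocyte and macrophage markers was 169 to 502 in Rag2-/-γc-/- libraries, against 143 to 187 in Rag2-/- libraries, and none of the 10 passed (edgeR). Unadjusted p was under 0.05 for 7 of the 10, against 2778 of all 18923 genes. DESeq2 called 6, against 3.66% of all genes, and limma voom 0, against 0.428%. Summed Muller glia markers were 4967.5 to 5837 CPM in Rag2-/-γc-/- libraries, against 5029 to 5493 CPM in Rag2-/- libraries. No marker of these 3 lists was at 0 in any library of the table, and their part in the members' levels was not tested. Replicate 3 of the Rag2-/-γc-/- group, the library high for Socs3, Osmr and Stat3, had summed rod markers of 39747 CPM, against 50558 to 53958 CPM in the other Rag2-/-γc-/- libraries. Cornea and conjunctiva markers were near 0 in this table, with a summed 1.59 to 8.28 CPM and up to 4 of the 10 genes at 0. Summed NK and T cell markers overlapped near 0, at 0.504 to 1.04 CPM in Rag2-/-γc-/- libraries, against 0.528 to 1.17 CPM in Rag2-/- libraries. Up to 6 of those 8 genes were at 0, so they do not check the loss of NK cells. Summed pericyte and fibroblast markers were 1727, 490 and 372 CPM in Rag2-/-γc-/- libraries, against 343 to 605 CPM in Rag2-/- libraries. In the Rag2-/- mice of that table Stat3 averaged 12.9 ± 1.33 FPKM and Socs3 8.17 ± 1.23 FPKM (SD, n = 3), and in the wild-type table at day 3 they averaged 21.97 ± 2.13 and 12.001 ± 7.75 FPKM (n = 4). These tables were scaled separately and no comparison was made across them.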

How the data were processed

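RNA of retina and choroid was extracted with TRIzol, and Novogene prepared the libraries, per the labels. Raw counts per gene were deposited by the authors, made with featureCounts 1.5.0-p3 on mm10, per the submitters' processing notes. Aligner, annotation and strand setting: not given in the sources used here. The FPKM deposited by the authors are the counts over gene length, scaled by 1 constant in each library, and were used only to order levels between genes.

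Counts were tested with edgeR 4.0.16 in R 4.3.3 after filterByExpr (minimum count 10, minimum total 15) and TMM scaling, with robust quasi-likelihood fits on group means, 1 fit per table. P-values were adjusted over all tested genes by the Benjamini-Hochberg method at 0.05. CPM are TMM-scaled. Alternatives used limma 3.58.1 and DESeq2 1.42.0. The same steps were tested on simulated data. Named beyond the members were the called genes of 2 lists with the largest change, up to 6 per list and comparison, Jak1, Jak2, Tyk2, Stat5a, Vegfa, Hif1a and oncostatin M (chosen after their values were seen), and the 5 genes most like a member (log2 CPM, prior count 2), here for 3 members. Members and lists were chosen with earlier results of these data known. A gene of the pathway list is counted but not reported here by name.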

Additional observations from a re-analysis of the deposited data

Results flagged for a closer look

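Within groups of 4 wild-type libraries, 8 values of the members stood far from the other 3 by the gap to the nearest library relative to the range of the group, among 39 groups examined. Chance flags about 1 in 20 groups. Day 14 replicate 1 was high for Clcf1 (21.0 CPM, other libraries 8.09 to 10.1), Socs3 (19.7 CPM, others 4.71 to 6.75) and Il6ra (6.21 CPM, others 1.17 to 1.52). Day 3 replicate 3 was high for Clcf1 (17.6 CPM, others 12.3 to 13.1) and for Il6 (2.45 CPM, others 0 to 0.0604). Il6st was high in day 7 replicate 4 (115 CPM, others 89.9 to 90.7). The remaining values rest on a few reads, with Cntf at 0.459 CPM in control replicate 2 (7 reads, others 2) and Il6 at 0.0650 CPM in control replicate 4 (1 read, others 0).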

How the results depend on the processing

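At day 3 the main fit called 5 members against control and 14.7% of all genes. The member count was 1 with lens and cornea scores as covariates (3.56% of all genes) and 3 to 5 when 1 library was left out (1.54% to 12.7%). Lif, Stat3 and Socs3 passed in all 8 of those fits. The fit on day 3 and control libraries alone called 7 members and 38.9% of all genes. The fit without replicate 3 of day 3, replicate 2 of day 7 and replicate 1 of day 14 called 6 and 22.2%. At day 7 against control the 0 calls became 1 with library totals, 1 with DESeq2, 4 on the 2 groups alone and 5 without those 3 libraries. Those fits called 7.66%, 20.2%, 23.9% and 19.6% of all genes, against 10.5% in the main fit. Day 7 against day 3 gave 1 call with DESeq2 (0.338% of all genes) and 1 without the 3 libraries (0.0479%). Day 14 against day 3 gave 2 with DESeq2 (0.616% of all genes) and 5 without the 3 libraries (3.64%). It gave 0 to 5 when 1 library was left out, the 5 without day 14 replicate 1 (6.82%). Rag2-/-γc-/- against Rag2-/- gave 1 with DESeq2 (3.66% of all genes). Counts stayed at 0 when 1 library was left out of the other 4 comparisons.

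Reversals touched only values that had not passed. With covariates Il6st was −0.0770 at day 3 and −0.27 at day 14, and Il6ra −0.44, −0.96 and −1.07 at days 3, 7 and 14. Il6st at day 14 was −0.0217 with library totals, −0.0473 with limma voom and −0.00202 with the replicate block. Without the 3 libraries Il6st and Il6ra at day 14 were −0.34 and −0.46 and Lifr at day 14 against day 3 −0.0651. Leaving out 1 library gave −0.192 to 0.791 for Il6ra at day 7, −0.337 to 0.228 for Il6st and −0.462 to 0.697 for Il6ra at day 14, −0.0547 to 0.118 for Lifr at day 14 against day 3, and −0.254 to 0.164 for Clcf1 and −0.00336 to 0.168 for Lifr between the Rag2 genotypes. The cause of these shifts was not tested.

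Replicate numbers did not pair libraries. Correlations of same-numbered libraries ran from −0.51 to 0.48 in the wild-type table and from −0.06 to 0.08 in the Rag2 table, and 0 of 16 and 2 of 6 libraries correlated best with their own number. With the replicate block 5 members were called at day 3 and 0 in each other comparison, and calls over all genes were 2897 at day 3, 1691 at day 7, 2 at day 14 and 46 between the Rag2 genotypes.

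Calls over all genes moved more. At day 3 the 2749 calls became 1406 with no filter, 4799 with DESeq2, 665 with covariates, 7252 on 2 groups, 4168 without the 3 libraries and 292 to 2409 leaving 1 out. At day 7 the 1962 became 751, 3768, 1298, 4452, 3686 and 128 to 2923. At day 14 the 51 became 26, 1801, 90, 1, 514 and 1 to 159, with 6 for library totals and 101 for limma voom. For the Rag2 genotypes the 88 became 491, 692 and 25 with no filter, DESeq2 and covariates, and 25 to 116 leaving 1 out. Day 7 against day 3 gave 0 to 63 and day 14 against day 3 gave 0 to 1290. Scaling by library totals moved the share called higher to 58.3% at day 3, against 47.3%, to 55.9% at day 7, against 34.4%, and to 33.3% of 6 genes at day 14, against 11.8% of 51. Cntf and Il6 had too few reads to test in either table, and oncostatin M too few in the wild-type table.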
